A study of Mus musculus with 2 samples.

Results

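Nucleoporins and the receptors that carry cargo through the nuclear pore were examined in mouse bone marrow LSK cells of 2 genotypes, control and Ago2 Hem KO, on the C57BL/6J strain. Members were chosen by a rule on gene symbols, set with earlier results of these data known: every probe for a gene named Nup plus a number, Kpna, Kpnb, Ipo plus a number, Xpo, Tnpo, Ran, Rangap1, Ranbp1, Ranbp2 or Nxf1, with 1 exportin symbol left out by the rule. The rule also names Tpr, and Nup35 and Ipo11 fit its names, but none of them was analysed here. The members came to 90 probes of 46 genes, out of 34885 probes with a gene name for 19057 genes. Of the 46 genes, 37 were detected on both arrays (detection p under 0.01) and 9 on neither. LSK cells are sorted as negative for mature lineage markers and positive for Sca1 and c-Kit, which enriches stem cells and early progenitors of the blood. Ago2 encodes an Argonaute protein, through which microRNAs silence messenger RNAs. Each genotype was measured on 1 Illumina bead array, so no value has a replicate and no test was run. The sources used here do not give the promoter that drives the deletion, the number of mice behind each sample or their age.

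The nuclear pore complex is a ring of nucleoporins set in the nuclear envelope. Scaffold nucleoporins hold the ring in shape, and nucleoporins rich in phenylalanine-glycine (FG) repeats fill its channel and bind passing transport receptors. Importins carry proteins inward and release them when the GTPase Ran, loaded with GTP in the nucleus, binds them, while exportins carry cargo outward together with Ran-GTP. Messenger RNA leaves mainly through the receptor encoded by Nxf1, without direct use of Ran.

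The targeted gene was lower on the Ago2 Hem KO array on each of its 3 probes detected on both arrays. The brightest went from 288 to 180 in signal, and was 2.44-fold lower after normalization. The others were 1.73-fold and 1.36-fold lower after normalization. The position of these probes relative to the deletion is unknown here. Kit, which encodes c-Kit of the gate, gave signals of 2071 (control) and 2793 (Ago2 Hem KO), and Cd34 gave 359 and 497 in the same order. Both belong to a list of stem and progenitor genes in which only Kit and Ly6a encode antigens of the gate. After normalization the 4 genes of this list detected on both arrays lay above 0, with Gata2 at 0.45, Cd34 at 0.30, Kit at 0.22 and Meis1 at 0.14. Cd48 was detected on the Ago2 Hem KO array only, while Flt3 and Slamf1 were not detected and Ly6a, which encodes Sca1, was not analysed here. The 75th percentile signal was 134.5 on the Ago2 Hem KO array and 121.4 on the control array, so the former was the brighter. Of all probes, 34.4% were detected on the Ago2 Hem KO array and 32.8% on the control array. Signals are given as deposited, the control first where 2 are paired, but differences are taken after background correction and quantile normalization, as log2 of Ago2 Hem KO minus control, and a gene is represented by its brightest probe detected on both arrays.

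As a list, the nuclear transport genes lay slightly higher in the Ago2 Hem KO sample than genes at large. Their median log2 difference was 0.08, against -0.05 over all 8212 genes detected on both arrays. Of the 37 members 23 lay above 0 and 14 below, so 37.8% lay below 0, against 58.1% of all genes. The importin α gene Kpna1 and the importin gene Ipo7 were at least 1.5-fold higher, and no member was 1.5-fold lower. Over all genes, 1.90% were at least 1.5-fold higher and 1.90% at least 1.5-fold lower, and 2 of 37 members is too few to be read as a result about the list. Most members hardly differed, 25 of 37 (67.6%) lying within 1.2-fold, against 70.7% of all genes. The middle of the list ran from -0.11 at the 25th percentile to 0.24 at the 75th.

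**Figure D1:**
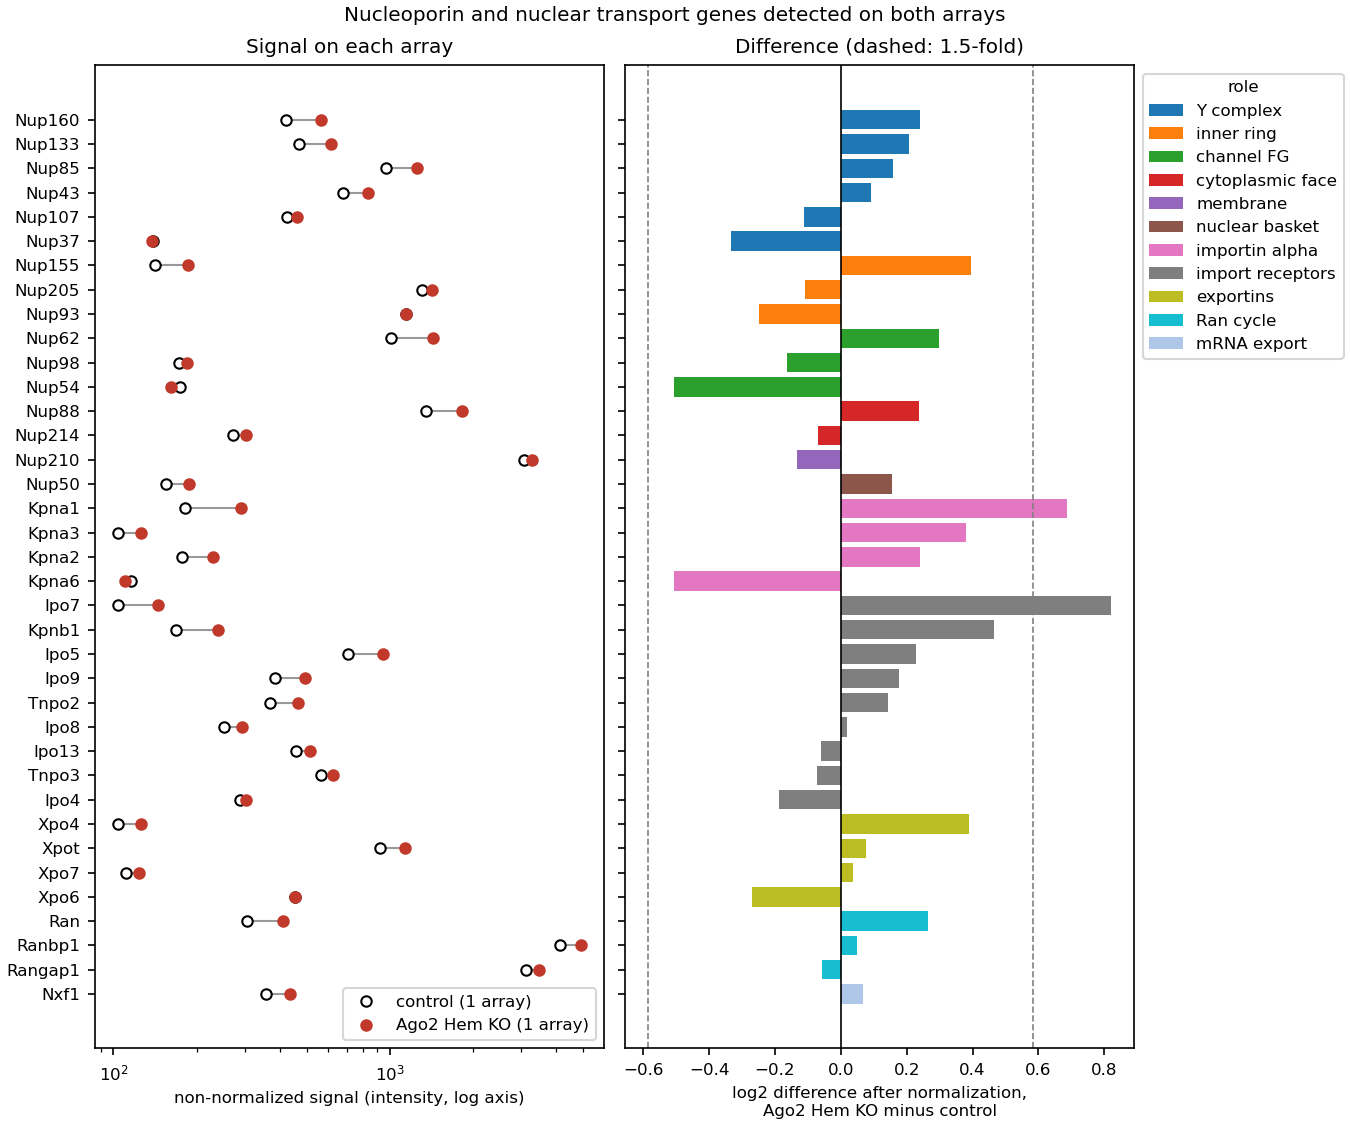
Left, the non-normalized signal of each of the 37 detected members on the control array (open circles) and the Ago2 Hem KO array (filled circles), on a log axis. Right, the log2 difference after normalization as bars coloured by role, with 1.5-fold marked by dashed lines; only Kpna1 and Ipo7 pass it, at 0.69 and 0.82.

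Dimmer members spread more widely than brighter ones, to a degree that rests on the background correction. The 16 members under the median signal of all genes ran from -0.51 to 0.82 with an SD of 0.40 across genes, and held both members past 1.5-fold. The 21 brighter members ran from -0.27 to 0.30 with an SD of 0.17, and 18 of them lay within 1.2-fold. Without background correction the same 16 dimmer members ran from -0.30 to 0.48 with an SD of 0.21, and the 21 brighter ones had an SD of 0.15. All genes showed the same pattern, with an SD of 0.31 in the dimmer and 0.23 in the brighter set of genes. The shift of the list was present in both sets, at medians of 0.10 and 0.08, or 0.05 and 0.07 without background correction.

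**Figure D2:**
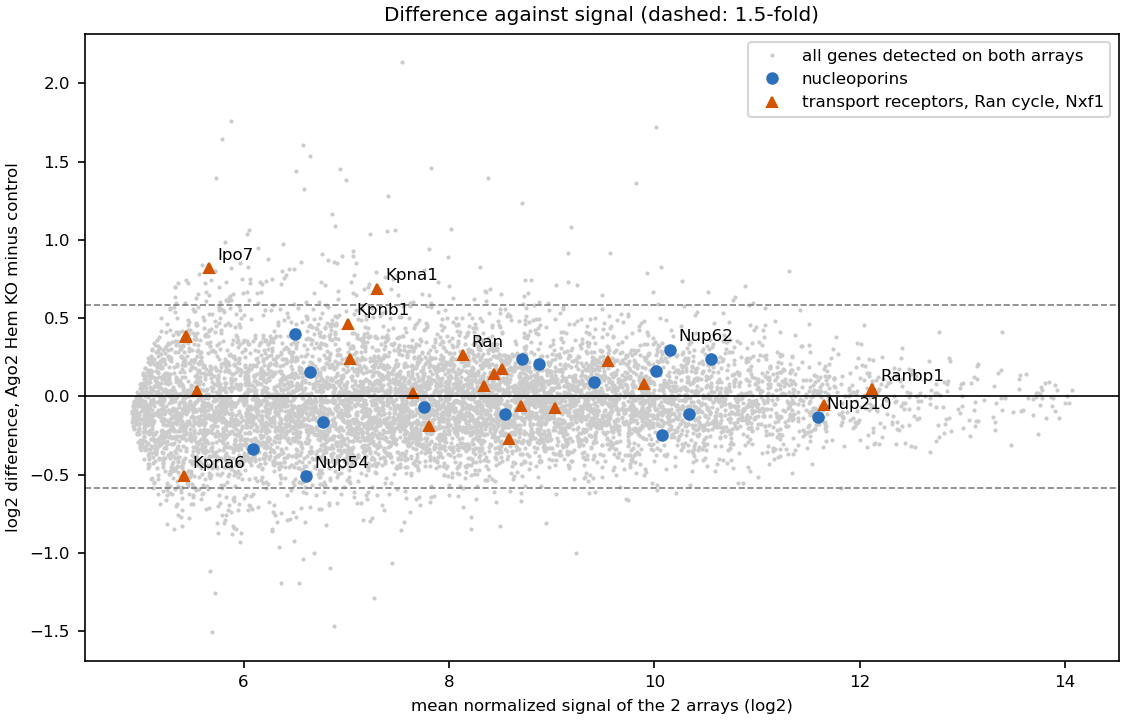
Log2 difference, Ago2 Hem KO minus control, against the mean normalized log2 signal of both arrays, for all 8212 detected genes (grey), nucleoporins (circles) and the receptors, Ran cycle genes and Nxf1 (triangles). The members farthest from 0 (Ipo7, Kpna1, Kpna6 and Nup54) lie among the dimmer genes, and the brightest (Ranbp1, Rangap1 and Nup210) lie near 0.

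The importin α proteins are adaptors that recognise the classical nuclear localization signal of a cargo and hand it to importin β. As processed here, they spread more widely than any other role group with 3 or more detected members, with an SD of 0.51 across 4 genes. Without background correction Kpna1 differed by 0.48 and Kpna6 by -0.19, and this ranking did not hold. Kpna1 had signals of 181 (control) and 290 (Ago2 Hem KO) and was 1.61-fold higher after normalization, a log2 difference of 0.69. It ranked 98 from the highest of the 8212 genes. Kpna3 (104 and 126) and Kpna2 (178 and 228) differed by 0.38 and 0.24. Kpna6 lay at the other end, with signals of 115 and 110 and a difference of -0.51 after normalization. It was thus 1.42-fold lower, ranked 261 from the lowest. Kpna1 and Kpna6 belong to the same importin α subfamily and differed in opposite directions. Each of these 4 genes was measured by 1 probe, and Kpna3 and Kpna6 lay near background on both arrays. Kpna2 has a pseudogene listed in RefSeq (Kpna2-ps), so which copy its probe measured is uncertain. Kpna4, another adaptor, and Kpna7, known from oocytes and early embryos, were not well above background on either array.

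Importin β, encoded by Kpnb1, binds the adaptors and carries them through the pore, and its relatives bind their cargo directly. Kpnb1 gave signals of 168 (control) and 239 (Ago2 Hem KO), a log2 difference of 0.47 or 1.38-fold, the second highest of the 9 detected import receptors. The highest was Ipo7, whose product imports ribosomal proteins among other cargo. Ipo7 gave signals of 104 (control) and 145 (Ago2 Hem KO), 1.77-fold higher after normalization at a difference of 0.82, and ranked 48 from the highest of all genes. Its control signal was close to background (detection p 0.00107), and its other probe was not detected on either array. Among the 1442 genes within 0.5 log2 of the mean signal of Ipo7, 3.26% were at least 1.5-fold higher. The corresponding share around Kpna1 was 2.63% of 1444 genes.

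The remaining import receptors stayed within 1.2-fold on their brightest probes. Ipo5, a further importer of ribosomal proteins, differed by 0.23 (signals of 704 and 948), Ipo9 by 0.18 (383 and 494) and Tnpo2, a transportin for RNA-binding proteins, by 0.14 (367 and 466). The second detected probe of Tnpo2 went the other way, at -0.38 (108 and 107), and the mean of both gave -0.12. Ipo8 is a member with a described tie to the targeted gene, since in human cells importin 8 binds Argonaute proteins. Its signals were 251 and 292, a difference of 0.02 after normalization. Ipo13 (-0.06), Tnpo3 (-0.07), which imports serine- and arginine-rich splicing factors, and Ipo4 (-0.19), an importer of histones, were the lowest. Tnpo1, the founding transportin, was not well above background on any of its 3 probes. Taking adaptors and import receptors as a set, 9 of 13 lay above 0 on their brightest probes, Tnpo2 among them, with a median of 0.18. Below 0 lay 30.8% of the set, against 58.1% of all genes. The set held both members past 1.5-fold, against 1.90% of all genes at least 1.5-fold higher, too few to be read as a result about it.

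Exportins, which leave the nucleus with their cargo and Ran-GTP, lay on both sides of 0. Xpo4 had signals of 104 and 126 and a difference of 0.39, while its second probe was detected on the Ago2 Hem KO array only, at 110 against 89.8, at least 1.15-fold higher. Xpot, the exporter of transfer RNA, had signals of 925 and 1135 and differed by 0.08. Xpo7, described as needed for nuclear condensation in maturing mouse erythroblasts, was dim at 111 and 123 and differed by 0.04. Xpo6, which exports actin, was lowest at -0.27, its signals of 456 and 453 being nearly equal on arrays of unequal brightness. Xpo1, the main exporter of proteins with a leucine-rich export signal, was not well above background on either of its probes.

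Among genes of the Ran cycle, Ran itself gave signals of 305 (control) and 410 (Ago2 Hem KO), a log2 difference of 0.26. Only 1 of 3 Ran probes was detected. Ranbp1, a cofactor of GTP hydrolysis by Ran, and Rangap1, which activates that hydrolysis, were bright and close to equal. Ranbp1 had signals of 4147 and 4930 and differed by 0.05. For Rangap1 they were 3111 and 3467, a difference of -0.06, with 0.02 and 0.10 on its other detected probes. Nxf1, the messenger RNA export receptor, had signals of 356 and 434 and differed by 0.07.

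The nucleoporins as a set were evenly split around 0. Of 16 detected, 8 lay above 0 and 8 below, with a median of 0.01, and none reached 1.5-fold. Of all genes 58.1% lay below 0, at a median of -0.05, so the nucleoporins too lay slightly higher than genes at large. Neither this difference nor that between the nucleoporin median and the 0.18 of the adaptors and import receptors was tested.

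The Y complex forms the outer rings of the pore scaffold. Nup160 (signals of 422 and 563) and Nup133 (469 and 615) were highest at 0.24 and 0.21, followed by Nup85 at 0.16 and Nup43 at 0.09. Nup133 was measured by a second detected probe, which gave 0.22. Nup107 differed by -0.11, and Nup37, a peripheral subunit, was lowest at -0.33 with signals of 139 and 138. The 6 subunits of this one complex thus spanned both directions, 4 above 0 and 2 below.

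Inner ring nucleoporins anchor the channel to the scaffold. Nup155 differed by 0.40 on its brightest probe (141 and 186) and by -0.23 on its other detected probe (115 and 118), the widest gap between probes of any member. Nup205 (1304 and 1423) differed by -0.11 and Nup93, with signals of 1143 on both arrays, by -0.25. Nup188, their partner, was not well above background. The 4 detected probes of the inner ring did not share a direction.

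Nup62 and Nup54 are FG nucleoporins that assemble into the same channel complex, and they lay in opposite directions. Nup62 was higher in the Ago2 Hem KO sample, with a signal of 1439 against 1013 in the control, and 1.23-fold or 0.30 higher after normalization. Nup54 was lower, with a signal of 161 against 174. After normalization it was 1.42-fold lower or -0.51, ranked 263 from the lowest of all genes. Without background correction Nup54 differed by -0.30, and in the authors' value table by -0.27. Nup98, whose transcript also encodes the scaffold protein Nup96, differed by -0.16, with -0.20 on its second probe. The bright probe of Nup62 and the dim one of Nup54 are the only probes these genes have here.

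On the cytoplasmic face, where export complexes are taken apart, Nup88 differed by 0.24 on its brightest probe (1351 and 1828) and by 0.13 on the next. A further pair of Nup88 probes was detected only on the Ago2 Hem KO array, the brighter one, with lower bounds of 1.00-fold and 1.09-fold. Nup214, its binding partner, differed by -0.07 (270 and 303). Ranbp2, which forms the filaments of this face, was not well above background on its 3 probes. Of the membrane nucleoporins, Nup210 was bright at 3058 and 3265 and differed by -0.13, while Nup210l, known from germ cells, was not detected. In the nuclear basket, Nup50 had 3 probes near 150 to 187 in signal, of which 2 gave 0.15 and the brightest on the control array gave -0.30. Nup153, the other basket member, was not detected, and neither was Nup62cl, a Nup62-like gene.

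Agreement between probes bounds how far these small differences can be read. In 8 members with more than 1 probe detected on both arrays, the probes shared a sign in 3 (37.5%), against 56.3% of 3016 genes at large. The median gap between the highest and lowest probe of a member was 0.15 on the log2 scale, against 0.23 over all such genes. That gap exceeds the list's median of 0.08. Kpna1 and Ipo7 are not among these 8, so neither has a second detected probe.

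**Figure D3:**
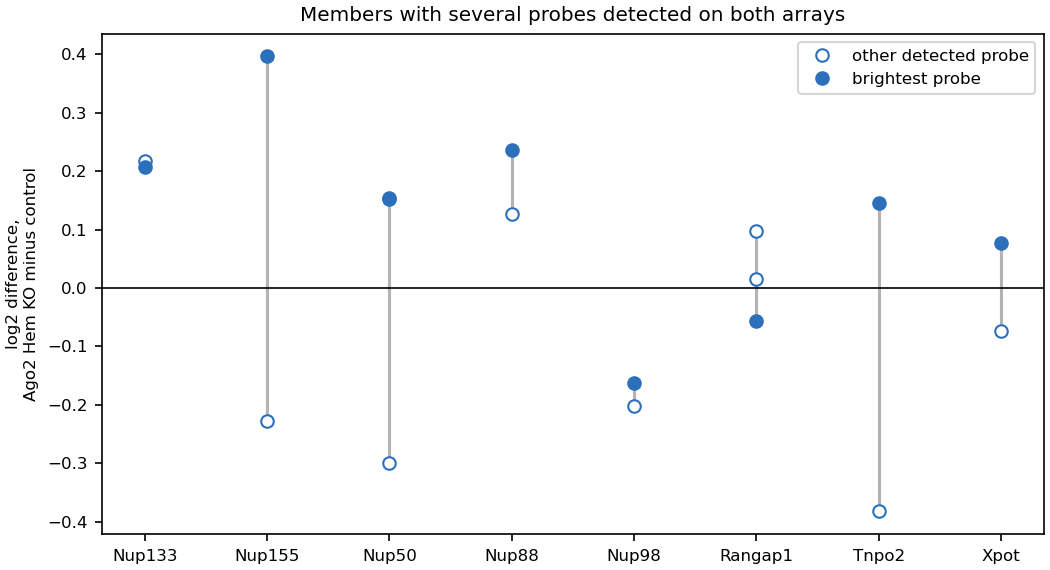
Log2 difference, Ago2 Hem KO minus control, of every probe detected on both arrays for the 8 members that have several; filled circles are the brightest probes and lines join probes of a gene. Nup133, Nup88 and Nup98 keep one sign, and Nup155 spans from -0.23 to 0.40.

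Other nuclear transport genes, named outside the symbol rule, had a median of -0.04, close to that of all genes. The array named 39 of them and both samples showed signal for 35, 16 lying above 0 and 19 below. Ddx19b, a helicase that releases messenger RNA at the cytoplasmic face, was the only gene of this list past 1.5-fold. Over all genes 1.90% were at least 1.5-fold higher, and 1 of 35 is too few to be read as a result. The signals of Ddx19b were dim, at 112 and 150, and it was 1.52-fold higher after normalization. Nmd3, the export adaptor of the large ribosomal subunit, was also dim (118 and 156) and differed by 0.52. Ahctf1, which seeds pore assembly on chromatin, differed by 0.40. The exchange factor gene Rcc1, which loads Ran with GTP, differed by 0.34 (314 and 442). Thoc3 and Pcid2, both of messenger RNA export complexes, were lowest at -0.50, and the exporter of importin α, Cse1l, differed by 0.11. Nupl1, the channel partner of Nup62 and Nup54, differed by 0.03, and the Y complex subunits Seh1l and Sec13 by -0.10 and 0.03.

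Values of other gene lists bear on how the members are read. Over all genes 58.1% lay below 0, 1.90% were at least 1.5-fold higher and 1.90% at least 1.5-fold lower. Erythroid markers were higher in the Ago2 Hem KO sample in 8 of 8 detected, 5 of them past 1.5-fold, and their summed normalized signal went from 2934 to 5702. Epor, Ermap, Rhag and Slc4a1 were detected there only, and Alas2 on neither array. Their part in the differences of the transport genes was not tested. In RNA from a sorted population, a change in the number of cells of a type and a change in RNA per cell cannot be told apart. Among macrophage markers, the C1q genes C1qa, C1qb and C1qc passed detection on the Ago2 Hem KO array alone, with Vcam1 at 0.13 and Cd14 at -0.35. Neutrophil markers ran from S100a9 at 0.25 to Retnlg at -1.12 over 6 detected, of which 5 lay below 0. Of these 5, Ltf and Retnlg were past 1.5-fold lower, while S100a8 (-0.01), Ngp (-0.05) and Camp (-0.08) lay close to 0. Mmp9 was detected in the control only. The summed normalized signal of the neutrophil markers, of which S100a8 and S100a9 are part, was 23006 and 23188. The 5 detected B cell markers lay below 0, from Vpreb3 at -0.03 to Igll1 at -0.79, and of the T cell markers with a probe only Thy1 was detected (-0.70), with Cd3d, Cd3e and Cd3g on neither array. Proliferation genes lay at a median of 0.01 over 15 detected, from Cdk1 at 0.35 to Rrm2 at -0.14, and none reached 1.5-fold.

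Letters of the start-site regions, which the rule did not use, were searched for 7 motifs chosen after the values were seen, with no test. RefSeq promoter sequences (250 bases before to 50 after a gene's start, build GRCm38.p6) were found for 38 of the 46 genes, 46 promoters in all, with a median GC content of 65.0% against 60.7% for genes detected on both arrays. The E-box CACGTG, which reads the same on both strands and is the site of MYC and USF proteins, occurred in 9 of the 46 promoters (19.6%), against 10.5% of 8697 promoters of detected genes and 7.2% of all 32851. The 46 include promoters of undetected members. Of the 37 promoters of detected members, which belong to 30 genes, 7 (18.9%) held the E-box. The core of the NRF1 site, GCGCA followed directly by its reverse complement, occurred in 4 of the 46 (8.7%) and of the 37 (10.8%), against 2.2% of detected genes' promoters and 1.0% of all. Matches of the E-box are shown for the detected members, with the motif in capitals, since the highest member, Ipo7, and one of the lowest, Nup54, both hold it. Second matches in Tnpo2 and the match of Ipo4, which lies after its start site, are not shown.
Ipo7 (chr7:110018167-110018194, plus strand): tgggagccagcCACGTGggccgtgtccg
Ran (chr5:129020027-129020054, plus strand): ctcggccggccCACGTGacccgccgccc
Tnpo2 (chr8:85036727-85036754, plus strand): acttattctctCACGTGactcaacttgg
Xpot (chr10:121626547-121626574, minus strand): gctccagggagCACGTGcgcggtcctcc
Nup93 (chr8:94214378-94214405, plus strand): tcaactccaacCACGTGggcgggagcag
Nup54 (chr5:92435283-92435310, minus strand): acgccccacacCACGTGaaagccacaaa

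On their brightest probes, the 7 detected genes with an E-box lay on both sides of 0, with Ipo7, Ran, Tnpo2 and Xpot above it and Nup93, Nup54 and Ipo4 below. Ran also holds the NRF1 core, as do Nup62, Nup50 and Nup107, shown here because they are the members found to hold it. Of these 4, Ran, Nup62 and Nup50 lay above 0 (0.26, 0.30 and 0.15) and Nup107 below (-0.11), while 23 of all 37 members lay above 0. Nup50 gave -0.30 on another probe and 0.003 with its detected probes averaged. A second match in Nup50 is not shown.
Ran (chr5:129019942-129019969, plus strand): ccgcagccaGCGCATGCGCgtggcagcc
Nup62 (chr7:44816059-44816086, plus strand): taagacaatGCGCATGCGCaacaggttg
Nup50 (chr15:84923314-84923341, plus strand): ggctccgacGCGCATGCGCagtagctgg
Nup107 (chr10:117792752-117792779, minus strand): acgaaagtcGCGCATGCGCcgagcggga

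Searched on both strands, CCAAT was found in 23 of the 46 member promoters against 38.3% of those of detected genes, GGGCGG in 67.4% against 63.0%, CCGGAAG in 15.2% against 19.2%, GGCGGGAA in 6.5% against 4.4% and AGATAA in 6.5% against 6.3%. GGGCGG and GGCGGGAA can overlap. A match describes the letters of these windows and is not evidence of binding.

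Kpna1 and Ipo7 lay above 0 in every setting that gave them a value, but passed 1.5-fold only in some. Kpna1 ranged from 0.45 in the authors' value table to 0.93 with scaling to the same median, and Ipo7 from 0.30 to 1.03 in the same settings. Neither passed 1.5-fold in that value table, without background correction or with an offset of 50. Of the 37 members, 27 had one sign in every setting that gave them a value. The other 10 lay within 0.19 of 0 as reported, and 9 of them crossed 0 upward under scaling to the same median, which moved the median of all genes to 0.16.

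**Figure D4:**
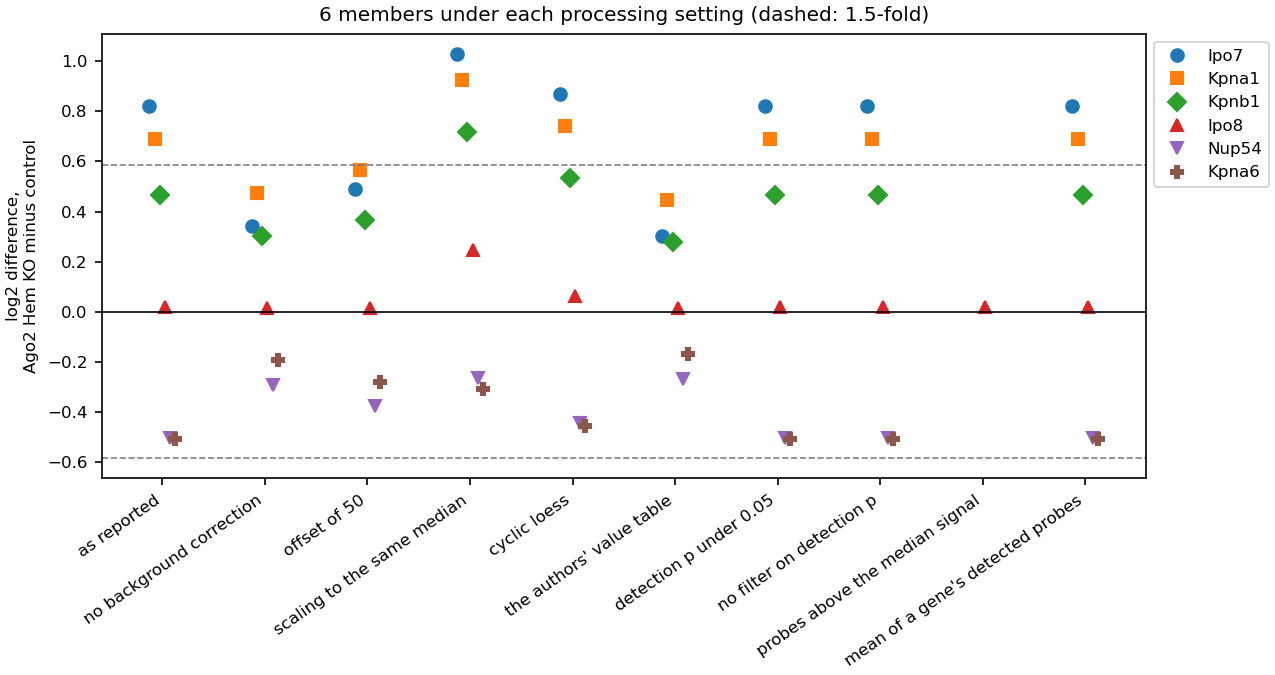
Log2 difference, Ago2 Hem KO minus control, of 6 members under the reported processing and 9 alternatives, with 1.5-fold marked by dashed lines. Of these 6 only Ipo8 had a value with probes above the median signal. Ipo7 and Kpna1 stay above 0 and Kpna6 and Nup54 below, while Ipo8 stays near 0 except under scaling to the same median (0.25).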

How the data were processed

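Per the labels' protocols, total RNA was extracted with a column kit, amplified and labelled with biotin. Of software, the submitters' processing notes name BeadStudio, with no version. The deposited non-normalized table holds a mean intensity per probe on a linear scale, and a detection p-value per probe and array, per the file headers. The authors also deposited an intensity table whose columns share 1 distribution (medians 86.2 and 86.2) and rank probes as the same arrays' signals do (Spearman 1.00). The sources used here do not say how it was normalized, and its log2 served as an alternative.

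Signals were corrected with the normexp model from the detection p-values (limma 3.58.1, R 4.3.3), with an offset of 16, quantile normalized between arrays and put on the log2 scale. Quantile normalization removes a change shared by most genes. Background correction widens the differences of dim probes, and the offset holds that back in part: Ipo7 differs by 0.34 without correction, 0.49 with an offset of 50 and 0.82 as reported. Probes were named by the platform annotation (34885 with 1 symbol, 34807 of them matched to RefSeq). The brightest probe with a detection p under 0.01 on both arrays stands for a gene. With 1 array per group no test was possible, the arrays' number limits the precision, and a gene counts as higher or lower at 1.5-fold. Lower bounds use the lowest detected value of the dim array. Named genes are all members past 1.5-fold, the highest and lowest of each role and the widest probe disagreement. Further members were named to account for the whole list. The members and lists were chosen with earlier results of these data known, and the promoter motifs after the values were seen. The steps were tested on simulated data with changes larger than 1.5-fold in probes well above background. Recovery of changes near 1.5-fold on dim probes was not covered.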

Additional observations from a re-analysis of the deposited data

How the results depend on the processing

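The median difference of the members, 0.08 as reported, stayed above 0 under all 9 alternatives. It was 0.072 without background correction, 0.075 with an offset of 50, 0.29 with scaling to the same median, 0.111 with cyclic loess, 0.072 with a detection p under 0.05 and with no filter on detection p, 0.057 with probes above the median signal and 0.036 with detected probes of a gene averaged. Less the median of all genes, these medians ran from 0.08 to 0.13. The count of members at least 1.5-fold higher, 2 as reported, was 0 without background correction, with an offset of 50, in the authors' value table and with probes above the median signal, which leaves 24 members without Kpna1 or Ipo7. It was 5 with scaling to the same median, where 5 members lay below 0 in place of 14, Kpnb1, Nup155 and Xpo4 being the additions. Relative to the median of all genes, 2 passed in that setting. None was 1.5-fold lower in any setting. Of 320 values of single members under alternatives, 311 stayed on the same side of 1.5-fold. That count says little about stability, since most members lay far from 1.5-fold and settings that change only the detection filter kept each member's value. Of the rest, 6 were values of Kpna1 and Ipo7 that fell below 1.5-fold and 3 were values of other members that passed it. Over all genes, calls at 1.5-fold higher and lower were 156 and 156 as reported, 529 and 33 with scaling to the same median, 202 and 116 with cyclic loess, 76 and 39 with an offset of 50, 46 and 18 without background correction, 42 and 15 in the authors' value table, and 60 and 37 with probes above the median signal. No paired analysis was possible because each group has 1 array, and for the same reason no replicate could be left out.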

Other observations

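The 9 members called on neither array gave signals close to background on every probe. Xpo1 gave 90.5 and 97.9 on the better of its probes in control and Ago2 Hem KO, and Nup153 gave 82.9 and 86.0 on its only probe. For Ranbp2 the most nearly detected probe gave 93.2 and 96.6, and it was the only added member with a detection p under 0.05 on both arrays. Nup188 (83.0 and 82.7), Kpna4 (78.2 and 85.3), Nup210l (84.2 and 87.7) and Nup62cl (79.7 and 87.1) had 1 probe each.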
